A study of Homo sapiens with 7 samples.

Results

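The MHC class II genes and their regulator CIITA were examined in a map of protein binding and promoter marking in t(8;21) leukemia cells. The 10 genes were CIITA, CD74, HLA-DRA, HLA-DRB1, HLA-DPA1, HLA-DPB1, HLA-DQA1, HLA-DQB1, HLA-DMA and HLA-DMB, out of 20163 protein-coding genes of the annotation. The rule that names them is their role and uses no measured value, though the set was proposed with earlier results of these data known. A summit, the position of the strongest signal in a peak, was assigned to a gene when it lay in the gene body or within 5 kb of it on GRCh37 (hg19), and a margin of 50 kb served as a wider view. The assay was ChIP-seq, in which DNA carrying a protein or a histone mark is recovered with an antibody and sequenced.

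All samples came from Kasumi-1, an established human line of myeloblasts from peripheral blood, which carries the t(8;21) translocation and expresses the fusion protein AML1-ETO, and the labels give no treatment. Antibodies to AML1, to ETO (for AML1-ETO), to the co-repressor N-CoR, to the co-activator p300 and to H3K4me3, a histone mark of active promoters, gave 11692, 18087, 10004, 11020 and 19632 summits. The 2 biological replicates of each antibody were pooled by the authors before peaks were called at a p threshold of 1e-20, which left 1 list per antibody, so no error between replicates and no test can be given. The lists hold positions without read counts or scores, they give no depth, and an absent summit means only that no peak passed that threshold.

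MHC class II molecules present peptides from engulfed material to helper T cells, and they are made mainly by dendritic cells, macrophages and B cells and, after interferon gamma, by many other cells. Their promoters share a short block of sequence, the X box bound by the RFX complex and the Y box bound by NF-Y, and transcription requires CIITA, a co-activator that binds these factors and not DNA. CIITA itself is transcribed from several alternative promoters that differ between cell types. AML1 (RUNX1) recognizes the sequence TGTGGT, and AML1-ETO keeps its DNA-binding domain.

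The promoters of the class II molecules themselves carried no H3K4me3 summit at their canonical starts. Of the 13 protein-coding class II HLA genes (8 of the 10 genes above, with HLA-DRB5, HLA-DQA2, HLA-DQB2, HLA-DOA and HLA-DOB), 0 had an H3K4me3 summit within 1 kb of the canonical start, beside 59.5% of all genes, and 1 (HLA-DMA) had one within 1 kb of any annotated start, beside 62.3%. No summit of any list lay in the gene body or within 5 kb for 10 of the 13, beside 25.8%. CD74, the invariant chain, had H3K4me3 at its start and no protein summit. CIITA had N-CoR, AML1-ETO and AML1 together in an intron and no p300. HLA-DMB had AML1-ETO with p300 and no H3K4me3.

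Sequences at which the proteins were found, and 2 promoters for comparison, are shown first because the results turn on them. Those of CIITA and HLA-DQA1 are reference sequence of GRCh37 on the plus strand and that of HLA-DMB on the minus strand, each the joined 100-bp windows around summits that lie close together, read along the gene. The CIITA site, at chr16:10980938-10981129, held summits of N-CoR, AML1-ETO and AML1. The HLA-DQA1 site, at chr6:32590919-32591018, held AML1-ETO alone, and the HLA-DMB site, at chr6:32905251-32905364, held p300 and AML1-ETO. Capitals mark TGTGGT (the Runx sequence) or GAGGAA (the PU.1 sequence), each on either strand, so that ACCACA is the Runx sequence read on the other strand.
CIITA site: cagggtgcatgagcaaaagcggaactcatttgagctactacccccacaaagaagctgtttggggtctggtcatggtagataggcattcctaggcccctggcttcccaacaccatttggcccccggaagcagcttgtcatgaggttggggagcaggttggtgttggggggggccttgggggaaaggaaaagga
HLA-DQA1 site: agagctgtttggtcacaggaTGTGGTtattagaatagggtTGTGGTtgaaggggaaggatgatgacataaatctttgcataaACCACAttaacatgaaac
HLA-DMB site: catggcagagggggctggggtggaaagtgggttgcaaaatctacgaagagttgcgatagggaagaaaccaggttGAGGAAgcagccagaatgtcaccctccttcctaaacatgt

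The promoters are from RefSeq, which gives them on GRCh38.p14, from 250 bases before the start to 50 after. RefSeq promoters were found for 8 of the 10 genes, with 9 sequences in all, and none was matched for CIITA and HLA-DRA. CD74, at chr5:150412861-150413160 on the minus strand, is shown as that of the gene with H3K4me3 at its start. HLA-DRB1, at chr6:32589799-32590098 on the minus strand, is shown as one with no summit within 5 kb of the gene. It also held letter matches to both class II boxes. Capitals mark the Y box (ATTGG, or CCAAT on the other strand) and the X box (AACNGNTG), searched on both strands.
CD74: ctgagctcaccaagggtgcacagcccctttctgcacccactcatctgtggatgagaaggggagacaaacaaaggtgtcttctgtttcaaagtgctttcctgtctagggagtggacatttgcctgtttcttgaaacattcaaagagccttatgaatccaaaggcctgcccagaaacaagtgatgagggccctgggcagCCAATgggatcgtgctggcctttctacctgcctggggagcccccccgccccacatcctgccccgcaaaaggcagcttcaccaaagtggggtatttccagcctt
HLA-DRB1: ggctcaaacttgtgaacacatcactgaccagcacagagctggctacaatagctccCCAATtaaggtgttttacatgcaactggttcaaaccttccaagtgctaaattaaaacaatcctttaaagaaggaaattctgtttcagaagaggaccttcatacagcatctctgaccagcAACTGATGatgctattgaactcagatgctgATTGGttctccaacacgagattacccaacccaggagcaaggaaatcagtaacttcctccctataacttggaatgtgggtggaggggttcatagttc

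Counted from the start, the X box match of the HLA-DRB1 promoter began at -76 and its nearer Y box match at -46. HLA-DMB had an X box match at -85 and a Y box match at -22, in the same order. In HLA-DQA1 the only X box match began at 26, after the start, and the Y box matches at -222 and -68. The order of the boxes in that promoter cannot be read from these letters. CD74 had a single Y box match at -53 and no X box match. Over the 9 promoters, 7 held the Y box letters, against 34.6% of all 35116 RefSeq promoters, and 3 held the X box letters, against 9.08%. No promoter of the 9 held TGTGGT, which 13.1% of all RefSeq promoters did. GAGGAA was held by 6 of the 9, against 27.9%, and GAAANNGAA (the IRF sequence) by 4, against 8.11%. These are matches of letters only. A match need not be a working box, and a box that departs from these letters is missed, so a promoter without a match may still hold one.

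Counted over the whole gene bodies, AML1 had a summit at 2 of the 10 genes (CIITA and HLA-DMA), beside 34.9% of all protein-coding genes. AML1-ETO had one at 4 (CIITA, HLA-DQA1, HLA-DMA and HLA-DMB), beside 41.3%. N-CoR had one at 2 (CIITA and HLA-DMA), beside 26.7%. The p300 list reached 2 (HLA-DMA and HLA-DMB), beside 45.5%, and H3K4me3 reached 3 (CIITA, CD74 and HLA-DMA), beside 68.0%. With 10 genes, the share was below that of all genes for every list, and nearest to it for AML1-ETO and N-CoR. No summit of any list was found at 5 of the 10 (HLA-DRA, HLA-DRB1, HLA-DPA1, HLA-DPB1 and HLA-DQB1), beside 25.8% of all genes.

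**Figure D1:**
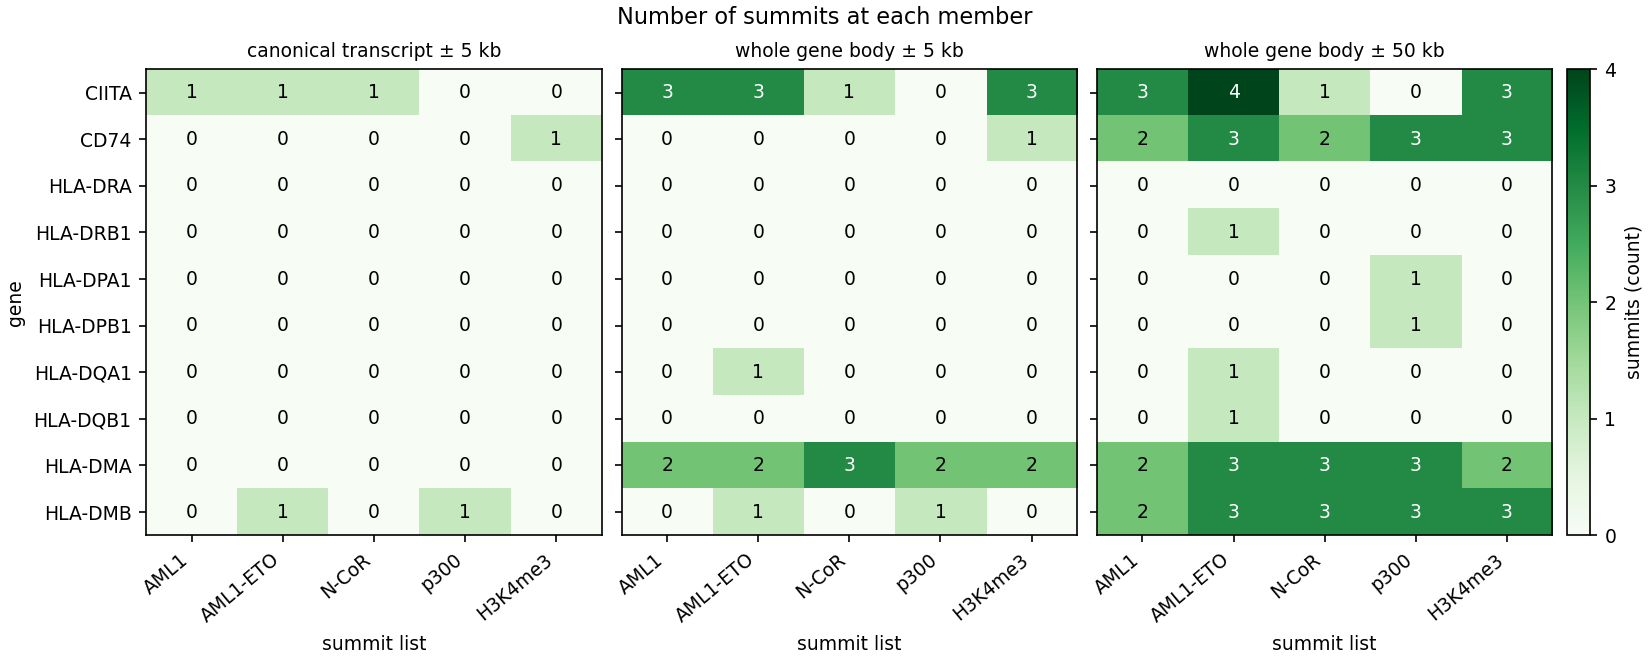
Number of summits of each list (columns) at each of the 10 genes (rows), within 5 kb of the canonical transcript, within 5 kb of the whole gene body and within 50 kb of it; each cell is a count from 1 pooled list. Within 5 kb of the whole gene body, 5 genes are at 0 in every column, and the counts of HLA-DMA and most of those of CIITA disappear in the canonical view.

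Several of these assignments rested on long annotated transcripts, so the counts were repeated with the canonical transcript of each gene, the single transcript that the annotation prefers, for 19881 genes. AML1 was then found at 1 of the 10 (CIITA), beside 33.1% of all genes. AML1-ETO remained at 2 (CIITA and HLA-DMB), beside 39.6%. N-CoR remained at 1 (CIITA), beside 25.1%, p300 at 1 (HLA-DMB), beside 44.4%, and H3K4me3 at 1 (CD74), beside 67.2%. Every list was thus again below its share over all genes in this view. Within 50 kb of the whole gene body, AML1 reached 4 of the 10 genes (all genes, 59.8%), AML1-ETO 7 (66.5%), N-CoR 4 (48.7%), p300 5 (64.4%) and H3K4me3 4 (80.9%). HLA-DRA alone had no summit of any list within 50 kb.

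**Figure D2:**
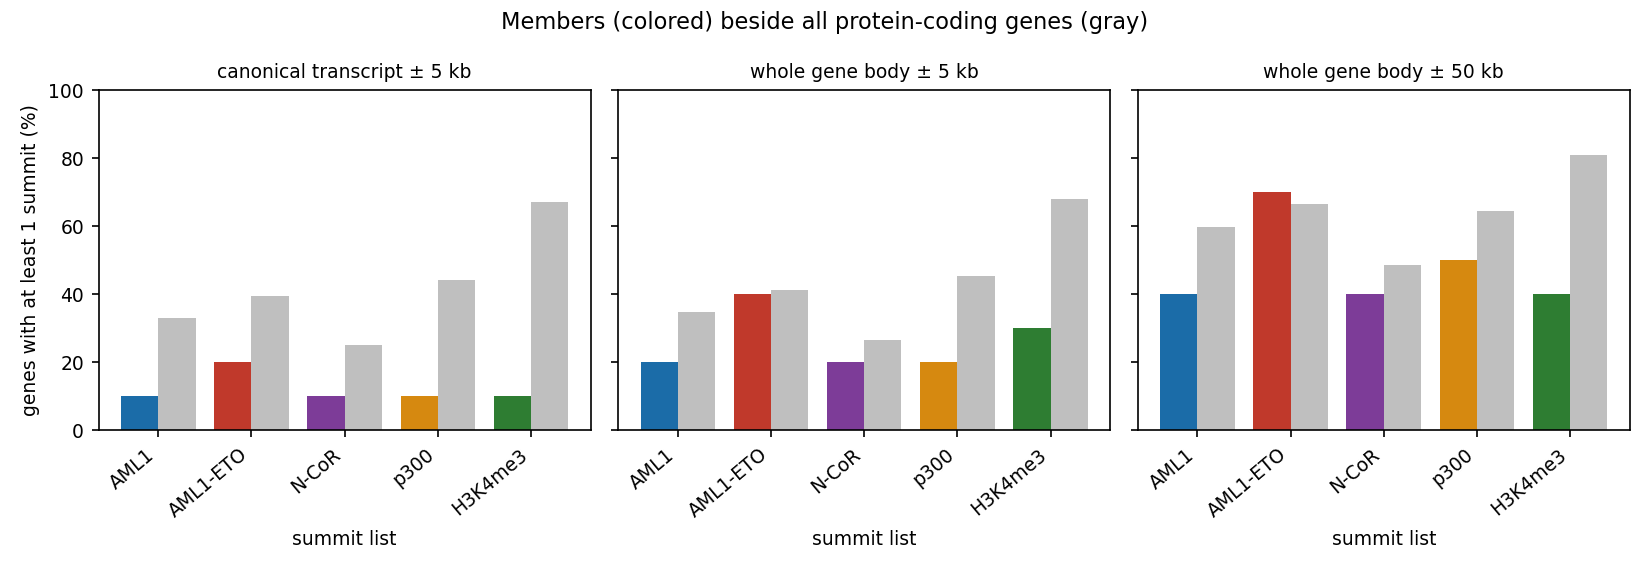
Percent of genes with at least 1 summit of each list, for the 10 genes (colored bars) and for all protein-coding genes (gray bars), under the 3 windows. In the middle panel the bar for AML1-ETO stands for 4 of 10 genes beside 41.3%, and all 5 colored bars are under the gray ones in the left panel.

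An H3K4me3 summit within 1 kb of any annotated start was found at 2 of the 10 genes, CD74 and HLA-DMA, beside 62.3% of all genes. At the canonical start it was found at 1, CD74, beside 59.5%. The promoters of CIITA and of HLA-DRA, HLA-DRB1, HLA-DPA1, HLA-DPB1, HLA-DQA1, HLA-DQB1 and HLA-DMB had none under either rule.

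CIITA, the regulator without which class II genes are not transcribed, spans chr16:10960079-11036878 on the plus strand, with 16 annotated starts and a canonical start at 10971059. It had 3 AML1-ETO summits, 3 of AML1, 1 of N-CoR, 3 of H3K4me3 and 0 of p300. The first was an AML1-ETO summit at 10962519, in an intron of a longer transcript and 8540 bp upstream of the canonical start. A further AML1-ETO summit, with an AML1 summit 41 bp away, also lay upstream of that start and outside the window of the canonical transcript. The windows of both these summits held TGTGGT, and that of AML1 also held GAGGAA.

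N-CoR, AML1-ETO and AML1 lay together at the CIITA site shown above, in an intron of the canonical transcript. The N-CoR summit was at 10980988, AML1-ETO at 10981043 and AML1 at 10981080, so that the AML1-ETO summit was 55 bp from N-CoR and 37 bp from AML1. The N-CoR summit was 9929 bp downstream of the canonical start. The 192 bases of this site held neither TGTGGT nor GAGGAA on either strand. TGTGGT was present in 31.3% of all AML1-ETO windows of 100 bp and in 40.6% of all AML1 windows, so a window without it was the more frequent case. Over the windows of the 10 genes, TGTGGT was present in 3 of 7 for AML1-ETO and 1 of 5 for AML1. The site lay in both the whole gene body and the canonical transcript, but over 5 kb from any annotated CIITA start, with the N-CoR summit 8162 bp from the nearest.

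The remaining CIITA summits lay at the far end of the gene beside other starts. H3K4me3 at 11036113 and 11036585 lay 125 and 260 bp from annotated starts of DEXI. AML1 at 11038258 and H3K4me3 at 11038685 lay 138 and 247 bp from the nearest start of CLEC16A. The nearest H3K4me3 summit was 65054 bp from the canonical CIITA start. The nearest p300 summit was 546491 bp from that start. Counted on any of its transcripts, the pattern of every list but p300 was shared by 520 genes (2.58%), but the H3K4me3 in it belonged to positions nearest to DEXI and CLEC16A starts.

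CD74 encodes the invariant chain, which fills the peptide groove of new class II molecules and guides them to endosomes. It spans chr5:149781200-149792532 on the minus strand. Its only summit within 5 kb was H3K4me3 at 149792184, in an intron, 289 bp downstream of the canonical start at 149792473 and 125 bp from the nearest annotated one. H3K4me3 alone was found at 2566 of all genes (12.7%). The nearest protein summits lay upstream, at or past the start of RPS14, with p300 36786 bp, N-CoR 41346 bp, AML1-ETO 41382 bp and AML1 41403 bp from the canonical CD74 start. Within 50 kb there were 2 AML1, 3 AML1-ETO, 2 N-CoR and 3 p300 summits, and RPS14 had the nearest protein-coding start for each of them.

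**Figure D3:**
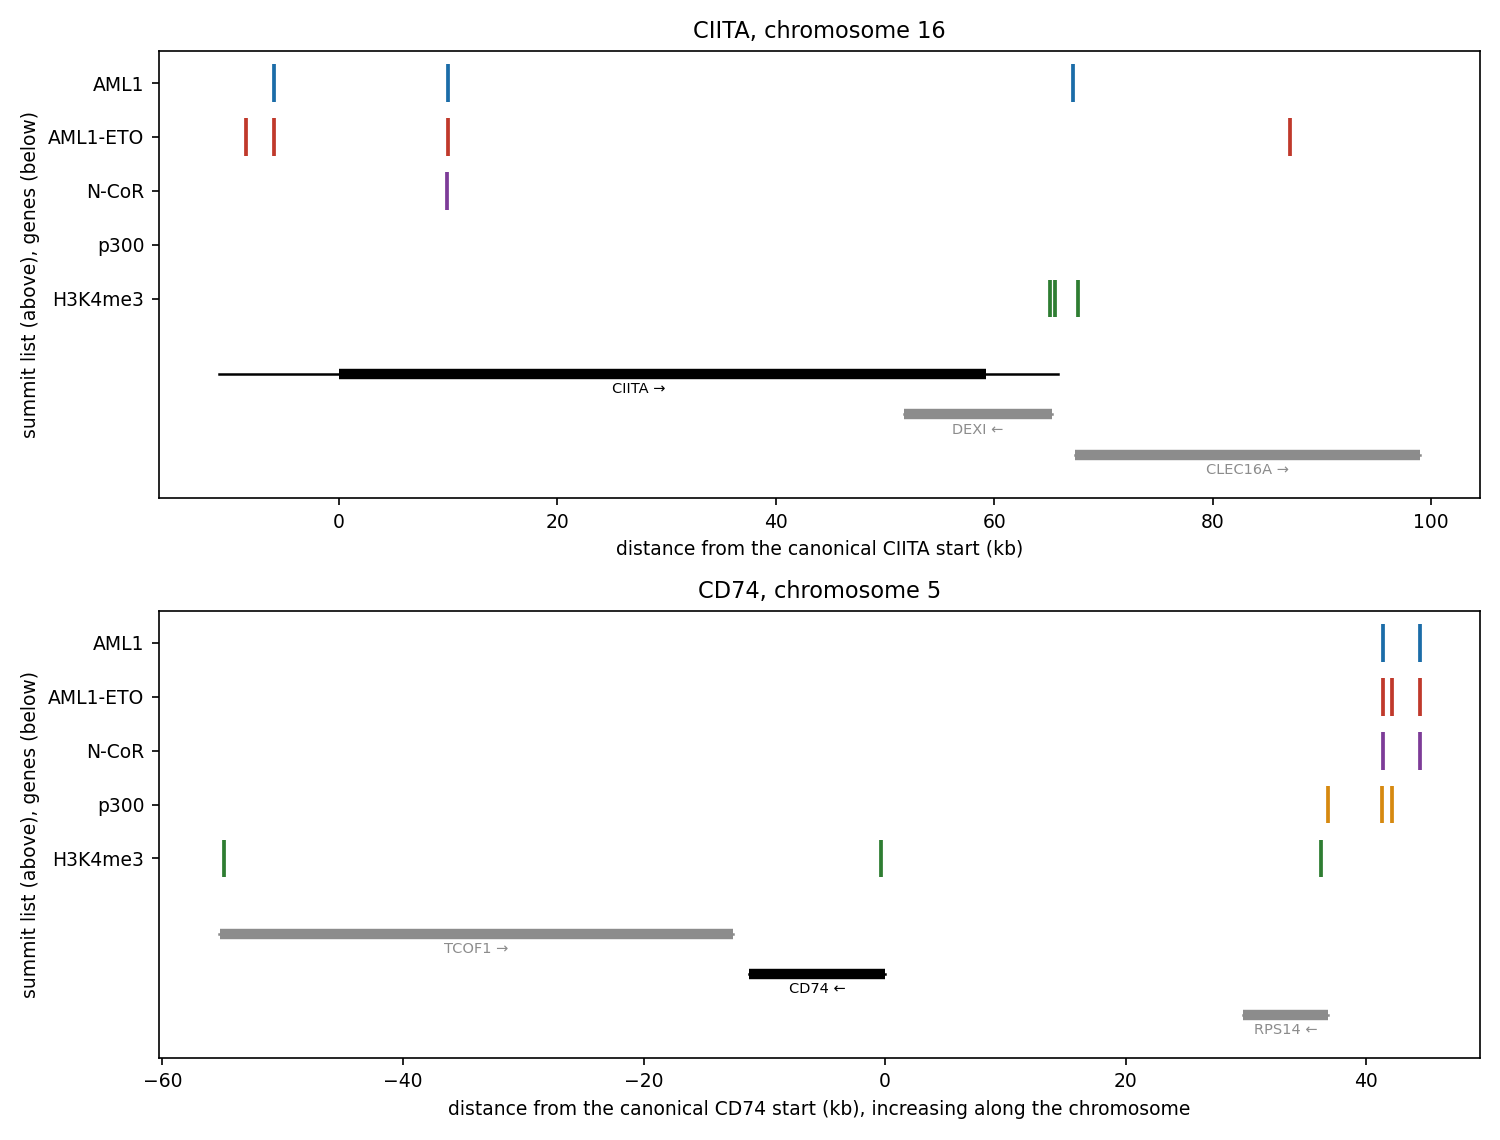
Summits of the 5 lists (vertical marks, colored by list) around CIITA and CD74, by distance in kb from the canonical start; below, genes are drawn with the canonical transcript thick and the whole annotated body thin, and arrows give the strand. CIITA has AML1, AML1-ETO and N-CoR marks in an intron, 9929 bp or more past the start. Other AML1-ETO and AML1 marks lie upstream of that start and at CLEC16A. The H3K4me3 marks of this panel lie only near DEXI and CLEC16A. CD74 has a single H3K4me3 mark at its start.

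The DR, DP and DQ genes encode the alpha and beta chains of the class II molecules that present peptide at the cell surface. HLA-DRA, at chr6:32407655-32412823 on the plus strand, and HLA-DRB1, at chr6:32545679-32557625 on the minus strand, lay in a stretch of 426883 bp without a summit of any list. It ran from H3K4me3 at 32164086 to AML1-ETO at 32590969. Among 70403 gaps between neighboring summits of the 5 lists, 1.83% were at least as long, and the median gap was 554 bp. These gaps include short ones between summits of different lists at the same site. This share, and those of gaps given below, count gaps and not genes or genome length. A gap picked because it holds a gene tends to be long, so these shares do not tell how rare such a location is. The nearest summit to the HLA-DRA canonical start was AML1-ETO 183305 bp away, and its nearest H3K4me3 was 243578 bp away. For HLA-DRB1 these distances were 33344 and 248790 bp.

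HLA-DQA1, at chr6:32595956-32614839 on the plus strand, had 1 summit, AML1-ETO at 32590969. It lay 4987 bp upstream of the outermost annotated start, just inside the margin of 5 kb, and 14214 bp upstream of the canonical start, which is outside it. Its 100 bases hold TGTGGT 3 times (the HLA-DQA1 site above). No N-CoR, p300 or AML1 summit was near, the closest being p300 314332 bp away. AML1-ETO alone was found at 326 of all genes (1.62%). HLA-DQB1, at chr6:32627244-32636160 on the minus strand, had none within 5 kb and the same AML1-ETO summit 36275 bp beyond its end. The canonical starts of both DQ genes lay in a gap of 215446 bp, as long as 4.16% of all gaps.

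HLA-DPA1, at chr6:33032346-33048552 on the minus strand, and HLA-DPB1, at chr6:33043767-33057473 on the plus strand, lay in a gap of 128469 bp, as long as 7.22% of all gaps. Neither had a summit within 5 kb. The nearest was p300 at 33069156, 11683 bp beyond the end of HLA-DPB1 and 20604 bp upstream of HLA-DPA1. The nearest H3K4me3 summits were 81091 and 85811 bp from the canonical starts of HLA-DPA1 and HLA-DPB1. The HLA-DPB1 promoter held 2 Y box matches, at -99 and -75 from the start.

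HLA-DMB and HLA-DMA form the molecule that removes the invariant chain remnant so that other peptides can bind. HLA-DMB, at chr6:32902406-32908805 on the minus strand, had p300 at 32905301 and AML1-ETO at 32905315, 14 bp apart. Both were in an exon, 3504 and 3490 bp downstream of the canonical start and 85 and 99 bp from another annotated start within the gene. The site held GAGGAA once and no TGTGGT. AML1-ETO with p300 and no other list in the gene window was found at 16 of all genes (0.0794%). The close pair itself was not rare, since 21.8% of all AML1-ETO summits had a p300 summit under 100 bp away. The nearest N-CoR and H3K4me3 summits were 27386 and 28540 bp from the canonical start.

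HLA-DMA spans chr6:32916390-32936871 on the minus strand, but its canonical transcript starts at 32920874, and beyond it only alternative transcripts reach as far as the start of BRD2. It had the most summits of the 10 genes, with 3 of N-CoR and 2 each of AML1-ETO, AML1, H3K4me3 and p300. All 11 lay between 15281 and 19813 bp upstream of the canonical start. BRD2, a bromodomain protein that reads acetylated histones, had the same 5 counts, and 9 of the 11 summits had their nearest protein-coding start at BRD2, 5 to 294 bp away. The other 2 (AML1-ETO and N-CoR) were nearest to a start of a long HLA-DMA transcript, at 66 and 30 bp, and the H3K4me3 summit that met the rule of 1 kb was 474 bp outside the HLA-DMA body. None was within 5 kb of the canonical HLA-DMA transcript. By smallest summed difference in the 5 counts, the genes most like HLA-DMA were BRD2, SPN and MAP3K5, with a difference of 0, and LINGO3 and ARL6IP5, with a difference of 1.

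**Figure D4:**
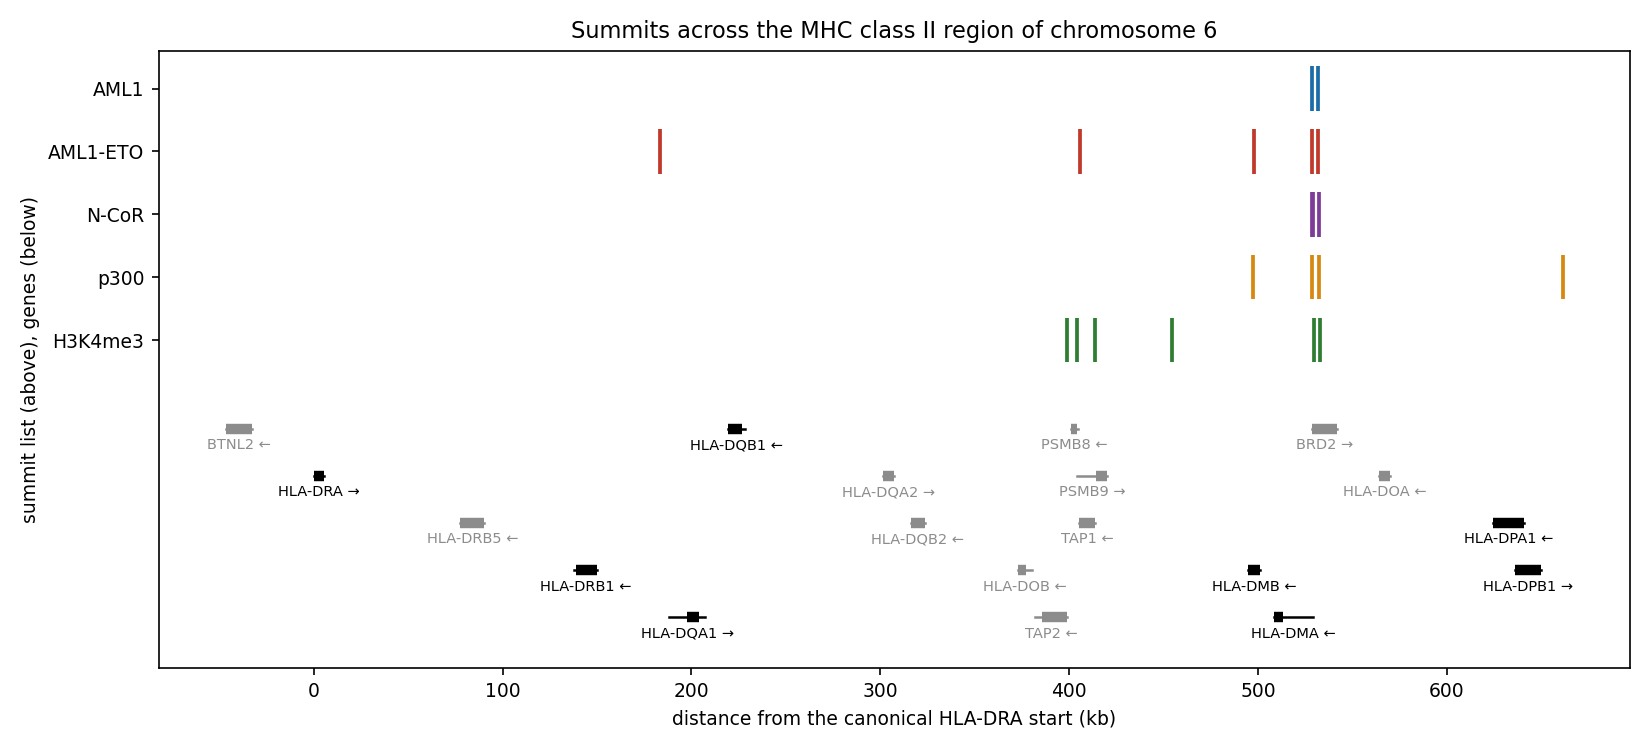
Summits of the 5 lists (vertical marks) across the class II region, by distance in kb from the canonical HLA-DRA start; genes are drawn below with the canonical transcript thick and the whole annotated body thin, the 8 class II genes of the set in black and others in gray. The left part, with the DR and DQ genes, has a single AML1-ETO mark, and the H3K4me3 marks sit at TAP2, PSMB8, PSMB9, TAP1 and BRD2 except for 1 between HLA-DMB and PSMB9.

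From the HLA-DRA to the HLA-DPB1 body (chr6:32407655-33057473, 650 kb) there were 6 H3K4me3, 5 AML1-ETO, 3 N-CoR, 3 p300 and 2 AML1 summits. For 6 of the 6 H3K4me3 summits the nearest protein-coding start belonged to a gene outside class II (BRD2, PSMB9, TAP1 or TAP2), and 1 of them, at 32862252, was 38378 bp from that start. For AML1-ETO, 3 of the 5 were nearest to a class II start, that of HLA-DQA1, HLA-DMB or a long HLA-DMA transcript. The density of H3K4me3 was 0.923 per 100 kb of this region, beside 1.24 per 100 kb over the windows of all protein-coding genes. The other lists were also below all genes here. AML1-ETO was at 0.769 beside 0.922, AML1 at 0.308 beside 0.586, N-CoR at 0.462 beside 0.503 and p300 at 0.462 beside 0.664. This region includes DNA between genes, and the windows of all genes reach only 5 kb beyond the gene bodies. These densities are therefore not measured over like stretches. In the windows of the 10 genes themselves (273 kb in all) there were 7 AML1-ETO, 6 H3K4me3, 5 AML1, 4 N-CoR and 3 p300 summits. The density was 2.57 per 100 kb in these narrower windows for AML1-ETO, beside 0.922 over all genes, and 2.20 for H3K4me3, beside 1.24. For AML1 it was 1.83 beside 0.586, for N-CoR 1.47 beside 0.503 and for p300 1.10 beside 0.664. Of these summits, 10 were at CIITA and 11 at the BRD2 end of HLA-DMA, and 4 were at the other 8 genes.

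Whether AML1-ETO was found with the co-repressor or the co-activator was read from summits under 100 bp apart. Of the 7 AML1-ETO summits at the 10 genes, 3 had an AML1 summit at that distance (42.9%, exact 95% interval 9.90 to 81.6%), beside 46.2% of all AML1-ETO summits. An N-CoR summit was that close for 2 of 7, beside 38.9%, at the CIITA site shown above and at the BRD2 end of HLA-DMA. A p300 summit was that close for 1 of 7, beside 21.8%, at HLA-DMB. No H3K4me3 summit was that close to any of the 7, as was true of all but 1.87% of AML1-ETO summits. The exact 95% intervals, which cover counting error only, were 3.67 to 71.0% for N-CoR, 0.361 to 57.9% for p300 and 0.00 to 41.0% for H3K4me3. The 7 summits include neighbors at the same gene, and the intervals are given as a description and not as a test.

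The other genes of the pathway were counted by list. HLA-DRB5, HLA-DQA2, HLA-DQB2, HLA-DOA and HLA-DOB, the remaining class II genes, had no summit of any list. In contrast, the factors that bind the class II promoter (RFX5, RFXANK, RFXAP, NFYA, NFYB, NFYC, CREB1 and ATF1) had H3K4me3 within 1 kb of the canonical start in 8 of 8, beside 59.5% of all genes. For the proteins, the shares over all genes given above for the gene body and 5 kb (41.3% for AML1-ETO, 34.9% for AML1, 26.7% for N-CoR and 45.5% for p300) apply here and to the lists that follow. AML1-ETO was found at 5 of these 8 (NFYA, NFYB, NFYC, CREB1 and ATF1), AML1 at 5 (RFX5, RFXANK, NFYA, NFYC and ATF1), N-CoR at 2 (NFYB and NFYC) and p300 at 6 (RFX5, RFXANK, NFYA, NFYB, NFYC and ATF1). RFXAP had no protein summit.

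Of 7 genes of the interferon gamma pathway, which switches CIITA on in many cells, 6 had H3K4me3 at the canonical start and IRF8, a myeloid transcription factor, did not (all genes, 59.5%). AML1-ETO was found at 5 of the 7 (all genes, 41.3%), at IFNGR1, IFNGR2, JAK1, IRF1 and IRF8. AML1 was found at IFNGR2, IRF1 and IRF8, N-CoR at IFNGR2 and IRF1, and p300 at IFNGR2, JAK1, JAK2 and IRF1. IRF8 had 3 AML1-ETO and 1 AML1 summits, no N-CoR and no p300, and its nearest H3K4me3 was 99255 bp from the canonical start. IRF1 had 10 AML1-ETO, 6 N-CoR and 3 AML1 summits over its whole annotated body, and 1, 0 and 0 within 5 kb of its canonical transcript. The p300 summit of JAK1 was also outside that view.

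Of 7 genes that process antigen for class II, H3K4me3 was at the canonical start of 5 and absent at LGMN, a lysosomal protease, and at MARCHF1, a ligase that removes class II molecules from the surface, which is near the 59.5% of all genes. LGMN had 5 AML1-ETO, 2 AML1 and 2 N-CoR summits, and its nearest H3K4me3 was 45150 bp from the canonical start. AML1-ETO was also found at the cathepsin genes CTSL, CTSB and CTSD and at MARCHF1, AML1 and N-CoR at CTSB, CTSD and MARCHF1, and p300 at CTSD.

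Other genes in or beside the class II region serve class I presentation or other functions. TAP1 and TAP2 (the peptide transporter), PSMB8 and PSMB9 (immunoproteasome subunits) and BRD2 lie among the class II genes and had H3K4me3 at the canonical start (all genes, 59.5%), while BTNL2, which lies outside HLA-DRA, did not. One AML1-ETO summit lay in the windows of TAP1, PSMB8 and PSMB9. The MHC class I genes HLA-B, HLA-C and HLA-E had H3K4me3 134, 159 and 375 bp from their canonical starts. B2M, the light chain of class I, had it at 178 bp and NLRC5, the class I counterpart of CIITA, at 221 bp, while the nearest to HLA-F was 25408 bp away. Of these 6, the 4 proteins were found at NLRC5 (1 summit of each) and B2M (p300) only. Reads were aligned with at most 2 mismatches, and HLA genes vary between people. The same rule applied to the class I genes, which are not a control for the class II stretches. The part of this limit in the empty class II stretches was not tested.

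**Figure D5:**
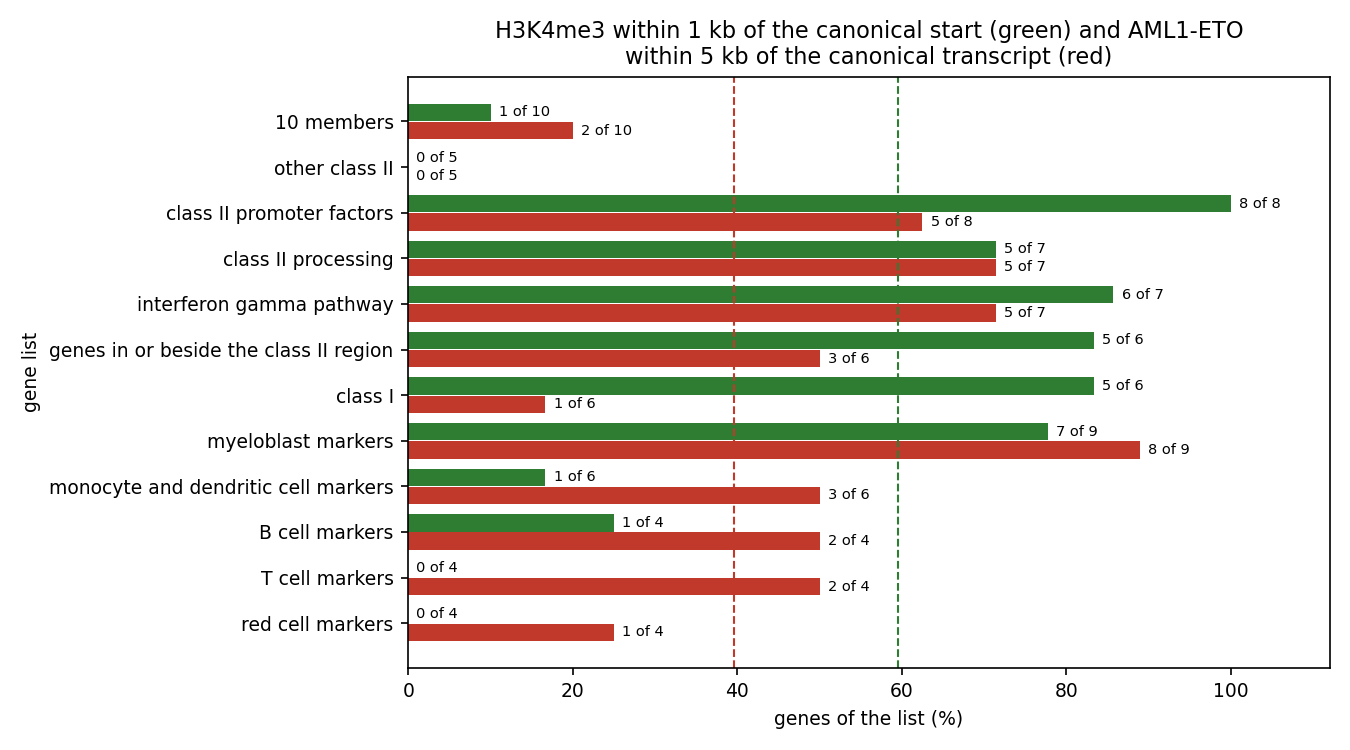
Percent of the genes of each list with H3K4me3 within 1 kb of the canonical start (green) and with AML1-ETO within 5 kb of the canonical transcript (red), with counts beside the bars; dashed lines give the same over all protein-coding genes, 59.5% and 39.6%. The 10 genes reach 1 and 2 of 10 and the other class II genes 0 of 5, while the promoter factors reach 8 of 8 for H3K4me3.

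The labelled cell type was checked by the same mark. An H3K4me3 summit within 1 kb of an annotated start was found at 9 of 9 myeloblast markers (MPO, CD34, KIT, CD33, SPI1, AZU1, ELANE, CEBPA and CD38), beside 62.3% of all genes, and at 7 of 9 canonical starts, beside 59.5%. Monocyte and dendritic cell genes had it at an annotated start in 1 of 6 (CD14) and B cell genes in 1 of 4 (PAX5). T cell genes had it at 1 of 4 (CD8A) and red cell genes at 0 of 4.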

How the data were processed

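Per the labels and the study's methods, reads from Kasumi-1 cells (passages 25 to 30) were aligned to hg19 with Bowtie 0.12.8, allowing 2 mismatches, the 2 biological replicates of each antibody were pooled, and peaks were called with MACS at a p threshold of 1e-20. The submitters' processing notes name CASAVA 1.6 and MACS2 2.0.10.20131216. The deposited lists hold intervals of 100 bp, from which the summit was taken as the start plus 50 and written counted from 1. They carry no score, height or depth. Names of the peaks inside 3 lists (N-CoR, p300 and H3K4me3) begin with another antibody, and the antibody was taken from the record of each file's sample. The lengths of these 3 lists equal the peak numbers that the study's supplement gives for the same antibodies at that threshold. Libraries for H3K27me3 and for input DNA were not used here.

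Gene bodies, starts and canonical transcripts came from GENCODE release 44 lifted to GRCh37. Summits were counted in the gene body with 5 kb to either side, and promoters as 1 kb to either side of a start. The 95% intervals of shares are exact (Clopper-Pearson) and leave out any error but that of counting. Sequences were read with pysam 0.24.0 and samtools 1.23.1, and other steps used Python 3.11.15, numpy 2.4.6, SciPy 1.17.1 and matplotlib 3.10.9. No test was made, since each antibody has 1 list. The counting was tested on simulated data.

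The genes and lists were chosen with earlier results of these data known. The genes named were all 10, every listed pathway gene with a protein summit in its window, and, for the gene with the most protein summits, the 5 genes closest to it in the 5 counts. Ties were broken by the closest length. Listed genes named for having no summit or for H3K4me3 alone were chosen after their values were seen. Some listed genes are not reported here, and sequences are printed for a few sites only. The alternatives were other margins, gene models, summit positions, promoter widths and distances between summits.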

Additional observations from a re-analysis of the deposited data

How the results depend on the processing

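Of 84 alternatives, 60 left the value within 1.5 times the one reported and 24 moved it, all of them small counts. With 50 kb to either side, the genes with a summit became 7 for AML1-ETO, 5 for p300, 4 for AML1 and 4 for N-CoR, and the summits 11 for AML1-ETO and 7 for p300. With the canonical transcript, an alternative chosen after seeing the data, the genes became 2 for AML1-ETO and 1 for each of H3K4me3, p300, N-CoR and AML1, the summits likewise 2 and 1 each, the genes with H3K4me3 at the promoter 1, and the AML1-ETO summits with N-CoR 1. Windows around the starts alone left 1 gene with N-CoR, assignment to the nearest gene body left 1 with p300, and coding transcripts alone left 3 H3K4me3 summits. With summits under 50 bp apart, 1 AML1-ETO summit had N-CoR. At 250 bp and 1 kb, 2 and 3 had p300. No paired analysis was possible because the files used here hold 1 pooled list per antibody, and for the same reason no replicate could be left out. Without scores, a stricter peak threshold could not be applied, and since the lists give no depth, an absent summit means only that no peak passed the threshold.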
